A study of Mus musculus with 20 samples.

Results

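Cap1, Pfn1 and Crip1 were described over prostates of 5 inbred mouse strains. All array elements that the annotation of the array assigns to one of these genes alone were taken, which gave 1 element per gene, 3 of the 11552 elements in the deposited table. The genes were chosen by their differences in log2 ratio between C57BL/6J and the other strains, known from these data, so each comparison with C57BL/6J is given for them as a description with no test, and tests were kept for the 4 other strains, the dye and the spread of pools within strains.

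The samples were whole prostates of male C57BL/6J, 129X1/SvJ, FVB/NJ, BALB/c and DBA/2 mice aged 8 to 9 weeks, with no treatment and no transgene in any strain. Each strain gave 12 mice in 4 pools of 3 mice, and each pool combined equal amounts of RNA from the dorsal, lateral, ventral and anterior lobes. Amplified RNA of a pool was hybridised to a 2-colour cDNA array against a common reference mixed from the RNA of all samples, with 2 pools of each strain labelled with Cy3 and the other 2 with Cy5. The C57BL/6J, 129X1/SvJ and FVB/NJ mice came from one supplier and the BALB/c and DBA/2 mice, of the substrains BALB/cAnNCrl and DBA/2NCrl, from another; in comparisons across these sets supplier and strain cannot be told apart, while C57BL/6J, 129X1/SvJ and FVB/NJ share a supplier. Values are log2 ratios of sample over reference: 0 is the level of the mixed reference and a difference of 1 is 2-fold. In whole tissue, fewer cells of a type and less RNA per cell cannot be told apart.

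Cells keep a store of actin monomers and build filaments from it, and both the supply of monomers and the turnover of filaments are set by small binding proteins. Cap1 (cyclase associated actin cytoskeleton regulatory protein 1) takes part in filament disassembly together with cofilin and recharges the released monomers with ATP. Pfn1 (profilin 1) binds ATP-loaded monomers and delivers them to the growing filament end, often through formins. Crip1 (cysteine-rich protein 1, named for intestine) is a short protein with a LIM zinc-binding domain; other LIM proteins link filaments to adhesions and to the nucleus.

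Each of the 3 genes lies on a chromosome of its own. The 250 bases before the RefSeq transcription start are shown, 5′ to 3′ on the strand of the gene, because the level of a transcript is what was measured and these stretches are where its synthesis starts. They are from the GRCm38.p6 assembly, which is of the C57BL/6J strain; the other strains' sequences were not analysed here. Capitals mark matches, on either strand, to a GC box (GGGCGG) or a CCAAT box (CCAAT).
Cap1, chr4:122886077-122886326, minus strand: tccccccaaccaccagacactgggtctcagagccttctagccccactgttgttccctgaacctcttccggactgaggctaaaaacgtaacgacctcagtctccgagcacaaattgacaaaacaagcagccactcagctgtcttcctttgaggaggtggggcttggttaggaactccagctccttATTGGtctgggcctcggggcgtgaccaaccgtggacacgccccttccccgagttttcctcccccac
Pfn1, chr11:70654651-70654900, minus strand: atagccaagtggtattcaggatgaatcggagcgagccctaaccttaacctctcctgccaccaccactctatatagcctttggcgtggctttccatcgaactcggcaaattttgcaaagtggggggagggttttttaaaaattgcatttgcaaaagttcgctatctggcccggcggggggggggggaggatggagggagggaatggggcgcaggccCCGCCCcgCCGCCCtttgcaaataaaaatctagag
Crip1, chr12:113151762-113152011, plus strand: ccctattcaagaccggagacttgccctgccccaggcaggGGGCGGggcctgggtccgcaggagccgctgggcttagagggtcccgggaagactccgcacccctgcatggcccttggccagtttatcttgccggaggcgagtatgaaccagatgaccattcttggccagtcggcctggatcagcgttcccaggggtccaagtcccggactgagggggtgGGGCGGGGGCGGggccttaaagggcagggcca

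The 3 stretches did not share a motif among those searched. Cap1 had 1 CCAAT box, read on the other strand, with its first base at -66 from the start. Pfn1 had 2 GC boxes at -35 and -27, and Crip1 had 3 at -211, -32 and -26, the last 2 side by side. Of 32544 RefSeq promoters, 33.0% held a GC box and 33.8% a CCAAT box in the same 250 bases, so neither motif is rare. A TATA box (TATAAA), an E-box (CACGTG) and the CArG box, the motif of serum response factor, were not among the letters of these windows. GC content was 57.2% for Cap1, 54.4% for Pfn1 and 67.2% for Crip1, against a median of 52.4% over all promoters. A match is a description of the letters and not a measured binding site.

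The study asked how far gene expression of the normal prostate varies with genetic background, and compared all pairs of the 5 strains; the pairs with C57BL/6J are taken here. Over all 11159 elements tested, limma called 145 (1.30%) against 129X1/SvJ, 349 (3.13%) against FVB/NJ, 311 (2.79%) against BALB/c and 334 (2.99%) against DBA/2 at an adjusted p under 0.05, and 359 (3.22%) against the mean of the 4 other strains. The count against 129X1/SvJ was the least settled, with 69 without C57BL/6J pool 2, 228 without 129X1/SvJ pool 4 and 608 with all arrays in 1 fit. These comparisons share the C57BL/6J pools, so they are not independent of one another. The values of the 3 genes in them follow as descriptions, and nothing is read from the fact that they are low, since they were chosen for it.

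Cap1 was low in C57BL/6J alone. Its log2 ratio was -1.05, -1.32, -1.03 and -0.96 in C57BL/6J pools 1 to 4. It was 0.33, 0.42, 0.47 and 0.46 in 129X1/SvJ, 0.08, -0.01, 0.12 and 0.09 in FVB/NJ, 0.04, 0.13, 0.08 and 0.15 in BALB/c, with DBA/2 at 0.07, 0.14, 0.14 and 0.22. No C57BL/6J pool overlapped any of the 16 other pools, and the gap between the highest C57BL/6J pool and the lowest other pool, FVB/NJ pool 2, was 0.95. Strain means were -1.09 ± 0.16 in C57BL/6J, 0.42 ± 0.068 in 129X1/SvJ, 0.14 ± 0.062 in DBA/2, 0.10 ± 0.052 in BALB/c and 0.070 ± 0.055 in FVB/NJ (SD, n = 4 pools each). The pools of a strain lay close together: the pooled within-strain SD was 0.0889, and 0.251% of the elements tested had a smaller one, against a median of 0.224 over all elements.

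Crip1 was lowest in C57BL/6J too, but its levels were graded over the other strains. Its log2 ratio was -1.09, -1.98, -1.13 and -1.56 in C57BL/6J pools 1 to 4. It was 0.86, 0.62, 0.63 and 1.03 in 129X1/SvJ, 0.23, 0.36, 0.53 and 0.53 in FVB/NJ, -0.38, 0.10, -0.15 and -0.35 in BALB/c, with DBA/2 at -1.06, -0.83, -0.80 and -0.69. The strains formed a staircase in which no 2 neighbouring strains overlapped, although C57BL/6J pool 1 and DBA/2 pool 1 were only 0.025 apart. Means were -1.44 ± 0.42 in C57BL/6J, 0.79 ± 0.20 in 129X1/SvJ, 0.42 ± 0.14 in FVB/NJ, -0.19 ± 0.22 in BALB/c and -0.85 ± 0.16 in DBA/2 (SD, n = 4 each). The within-strain SD of 0.250 was near the median of all elements, and the widest spread was among the C57BL/6J pools.

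Pfn1 had overlapping pools in most strains, with its lowest mean in C57BL/6J and its highest in DBA/2. Its log2 ratio was -0.09, -0.65, -0.27 and -0.60 in C57BL/6J pools 1 to 4. It was 0.21, 0.32, 0.16 and -0.67 in 129X1/SvJ, 0.35, -0.49, -0.23 and -0.02 in FVB/NJ, 0.35, 0.07, -0.14 and -0.02 in BALB/c, with DBA/2 at 0.43, 0.35, 0.35 and 0.26. Of the 16 other pools, 4 lay below the highest C57BL/6J pool, and the lowest of all 20 pools was 129X1/SvJ pool 4. Means were -0.40 ± 0.27 in C57BL/6J, 0.34 ± 0.069 in DBA/2, 0.067 ± 0.21 in BALB/c, 0.0044 ± 0.46 in 129X1/SvJ and -0.097 ± 0.35 in FVB/NJ (SD, n = 4 each). Its within-strain SD was 0.300, and 77.0% of elements had a smaller one.

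**Figure D1:**
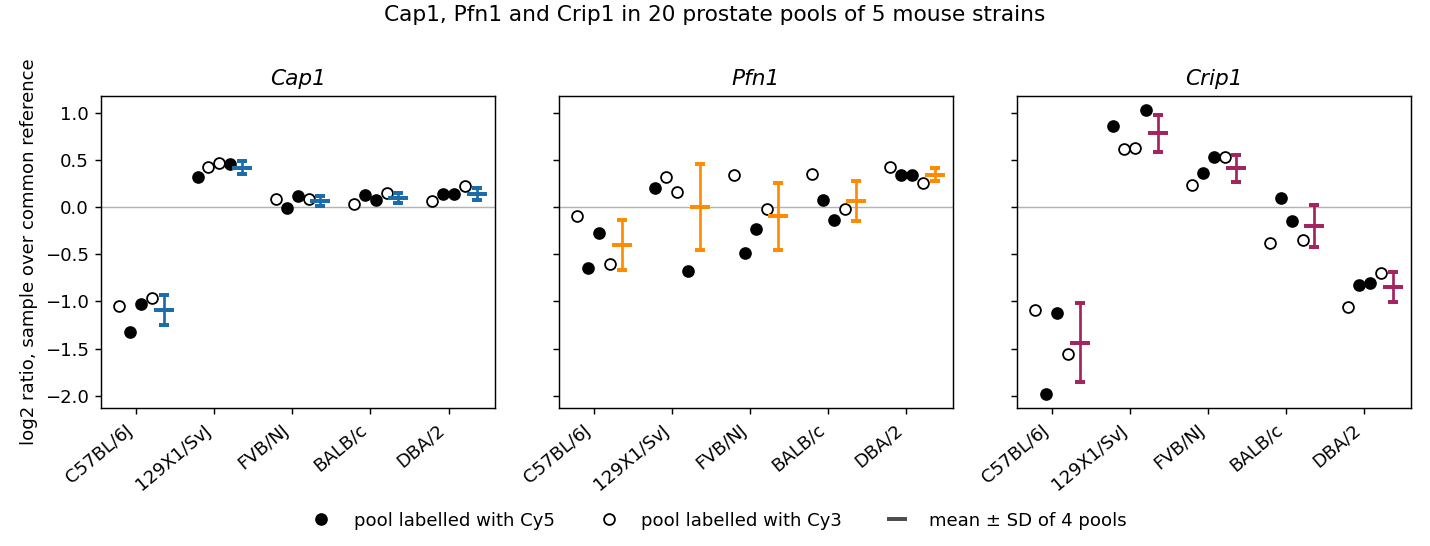
Log2 ratio of sample over common reference for Cap1, Pfn1 and Crip1 in each of the 20 pools, by strain, with filled circles for pools labelled with Cy5, open circles for Cy3 and a coloured bar for the mean ± SD of 4 pools. The C57BL/6J pools of Cap1 lie apart from all others at -1.32 to -0.96, those of Crip1 lie just under DBA/2, and those of Pfn1 overlap 3 of the 4 other strains.

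The difference for Cap1, C57BL/6J minus the other strain, was -1.51 (SE 0.13) against 129X1/SvJ, -1.16 (0.11) against FVB/NJ, -1.19 (0.11) against BALB/c and -1.23 (0.10) against DBA/2. These are levels 2.85-fold, 2.24-fold, 2.28-fold and 2.35-fold lower in C57BL/6J, a narrow band of sizes. For Crip1 the differences were -2.23 (0.21) against 129X1/SvJ, -1.85 (0.19) against FVB/NJ, -1.24 (0.20) against BALB/c and -0.59 (0.19) against DBA/2, or 4.68-fold to 1.51-fold lower in C57BL/6J. The size for Crip1 thus depended on the strain C57BL/6J was set against. For Pfn1 they were -0.41 (0.24), -0.31 (0.19), -0.47 (0.15) and -0.75 (0.13) against 129X1/SvJ, FVB/NJ, BALB/c and DBA/2, and pools overlapped in all of these but DBA/2, where the level was 1.68-fold lower in C57BL/6J. Leaving out 129X1/SvJ pool 4 made the Pfn1 difference from that strain -0.63, and leaving out FVB/NJ pool 1 made the one from FVB/NJ -0.16. Against the mean of the 4 other strains, C57BL/6J differed by -1.27 (SE 0.071) for Cap1, -1.48 (0.14) for Crip1 and -0.48 (0.16) for Pfn1.

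The differences kept their sign in the pools of either dye. Within the Cy5 pools, C57BL/6J minus the other strain ran from -1.57 to -1.23 for Cap1, from -2.50 to -0.74 for Crip1 and from -0.81 to -0.10 for Pfn1. Within the Cy3 pools it ran from -1.46 to -1.09 for Cap1, from -1.95 to -0.44 for Crip1 and from -0.69 to -0.51 for Pfn1. The dye itself, fitted beside strain as Cy5 minus Cy3, was not past the test for any of the 3 genes, while 15.9% of all elements were called for it. It was -0.051 (SE 0.054, adjusted p = 0.55) for Cap1, 0.11 (SE 0.11, adjusted p = 0.497) for Crip1 and -0.26 (SE 0.11, adjusted p = 0.127) for Pfn1. The elements numbered 1 or 2 places before or after the 3 on the array differed by -0.20 to 0.22 between C57BL/6J and the mean of the other strains.

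Among 129X1/SvJ, FVB/NJ, BALB/c and DBA/2, with no C57BL/6J array in the fit, Crip1 differed widely between strains and Cap1 little. The moderated F test over the 4 strain means called Crip1 (adjusted p = 3.42e-06) and Cap1 (adjusted p = 0.0483), and not Pfn1 (adjusted p = 0.579), at an adjusted p of at most 0.1, a threshold that 7.60% of all elements passed. The choice of the genes also drew on the values of these 4 strains, so the F test and the pair tests are not independent of it. The strain means spanned 1.63 for Crip1, 3.10-fold between 129X1/SvJ and DBA/2. They spanned 0.35 for Cap1, 1.28-fold between 129X1/SvJ and FVB/NJ, and 0.44 for Pfn1, 1.36-fold between DBA/2 and FVB/NJ. The Cap1 call was lost without 129X1/SvJ pool 3 (adjusted p = 0.119), and also once arrays were scaled to 1 spread (0.43) or quantile normalised (0.398). The arrays of 129X1/SvJ were the widest of the series, with a median absolute deviation over elements of 0.29 to 0.44 against 0.16 to 0.29 in the other strains, and pool 4 was the widest of them; the part of this spread in the results was not tested.

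The steps of the Crip1 staircase were tested pair by pair, each on its own 8 arrays and adjusted over all elements. Crip1 was higher in 129X1/SvJ than in DBA/2 by 1.63 (SE 0.14, adjusted p = 6.09e-04; 1.21% of elements called) and higher in FVB/NJ than in DBA/2 by 1.26 (SE 0.11, adjusted p = 7.89e-05; 3.73% called). It was higher in 129X1/SvJ than in BALB/c by 0.98 (SE 0.16, adjusted p = 0.02; 0.887% called), in FVB/NJ than in BALB/c by 0.61 (SE 0.13, adjusted p = 0.034; 2.41% called) and in BALB/c than in DBA/2 by 0.65 (SE 0.13, adjusted p = 0.0186; 3.42% called). The first 2 of these kept their call without any single pool. The other 3 lay close to the threshold: the call between 129X1/SvJ and BALB/c ended without 129X1/SvJ pool 1 or BALB/c pool 1, 3 or 4 (adjusted p up to 0.0974), that between FVB/NJ and BALB/c without FVB/NJ pool 2, 3 or 4 or BALB/c pool 1, 3 or 4 (up to 0.11), and that between BALB/c and DBA/2 without DBA/2 pool 1 or 2 (up to 0.0573). The top step, 129X1/SvJ minus FVB/NJ, was 0.37 (95% interval 0.044 to 0.70, adjusted p = 0.487; 0.780% called) and not past the test, although the pools did not overlap.

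For Cap1 no pair of these strains was called, although 3 of the 6 unadjusted 95% intervals excluded 0. 129X1/SvJ was the one strain whose 4 pools lay above all pools of FVB/NJ, BALB/c and DBA/2, by 0.35 (95% interval 0.095 to 0.61, adjusted p = 0.335), 0.32 (0.067 to 0.58, adjusted p = 0.412) and 0.28 (0.037 to 0.52, adjusted p = 0.394). FVB/NJ, BALB/c and DBA/2 overlapped, and their differences were between -0.072 and -0.031. For Pfn1 no pair was called either (adjusted p from 0.176 to 0.975), and 2 of the 6 intervals excluded 0. The farthest apart were FVB/NJ and DBA/2, with FVB/NJ minus DBA/2 at -0.44 (95% interval -0.78 to -0.0995, adjusted p = 0.176), which was called without FVB/NJ pool 1 (-0.59, adjusted p = 0.0321).

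**Figure D2:**
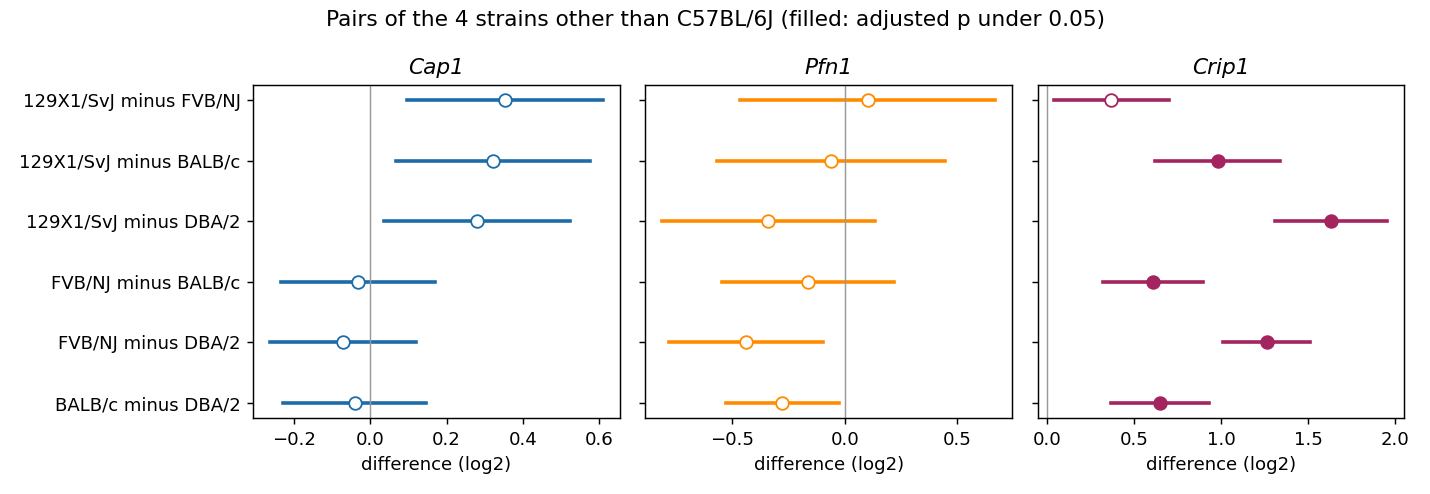
Differences of strain means on the log2 scale, first strain minus the second, for the 6 pairs of strains other than C57BL/6J, with 95% intervals of the moderated fit for each gene; filled points had an adjusted p under 0.05. All 5 filled points belong to Crip1, the largest being 1.63 between 129X1/SvJ and DBA/2, and within each pair of strains the Cap1 interval is the narrowest.

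Whether the 3 genes moved together from pool to pool was asked on deviations from the strain means, since the strain means were what chose them. Over 20 pools, Cap1 and Crip1 deviated together with Pearson's r of 0.557 (permutation p = 0.0113, adjusted over the 3 gene pairs 0.034) and Spearman's rank correlation of 0.453 (permutation p = 0.0456, adjusted 0.137). The permutations exchanged pools across strains, although the deviations of a strain cancel out by construction. The C57BL/6J pools also spread most in both genes, with SDs of 0.16 for Cap1 and 0.42 for Crip1. All permutation p-values of this paragraph may therefore be too small. With the dye means removed as well, r was 0.707 (adjusted p = 0.00264, permutation test). Without the 2 pools farthest from the Cap1 median r was 0.427 (adjusted p = 0.234, permutation test), so the call on Pearson's r rests on those pools. Spearman's rank correlation was 0.648 (adjusted p = 0.00798, permutation test) with the dye means removed and 0.480 (adjusted p = 0.136) without the 2 pools, close to its value over all pools. C57BL/6J pool 2 was the lowest pool of its strain in all 3 genes. Its array also had the widest spread of that strain. The median absolute deviation over elements was 0.28 on it, against 0.19 to 0.22 on the other C57BL/6J arrays. The part of this spread in the correlations was not tested. For Pfn1, r was 0.0302 to Cap1 and -0.06 to Crip1 (adjusted permutation p = 0.899 each).

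**Figure D3:**
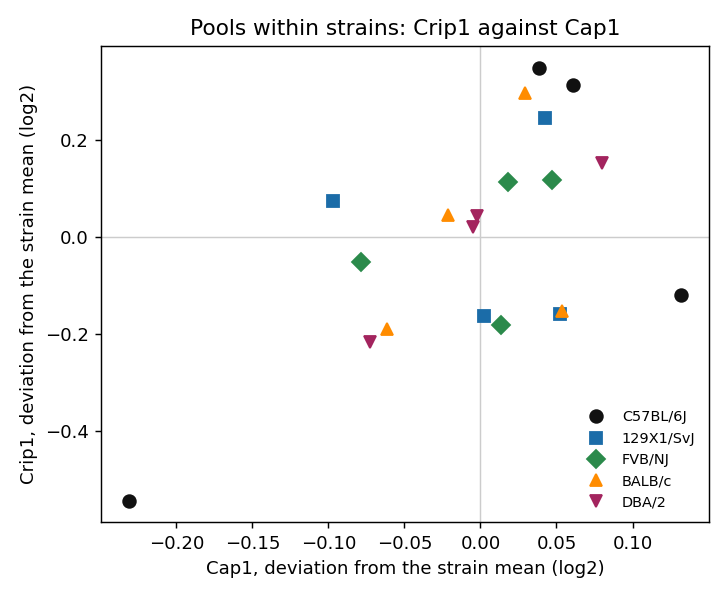
Deviation of each pool from its strain mean on the log2 scale, Cap1 across and Crip1 up, for 20 pools of 5 strains. C57BL/6J pool 2 sits lowest on both axes, and r is 0.557 with it and 0.427 without the 2 pools farthest from the Cap1 median.

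Of 166 other genes of the actin system on 6 lists, 83 were measured by an element of their own, and at most 3 were called between C57BL/6J and another strain. The lists were the actin isoforms (6 of 6 measured), monomer binding and filament turnover (14 of 31), nucleation and elongation (17 of 42), capping and tropomyosin (8 of 17), cross-linking and membrane linkage (22 of 35) and LIM domain proteins (16 of 35). In C57BL/6J, limma called 0 of the 83 against 129X1/SvJ, 3 (1 higher, 2 lower) against FVB/NJ, 1 (higher) against BALB/c and 2 (1 higher, 1 lower) against DBA/2, which are 0%, 3.61%, 1.20% and 2.41% of them, beside 1.30%, 3.13%, 2.79% and 2.99% of all elements. At an unadjusted p under 0.05 there were 8, 15, 8 and 18 of the 83. The share of all elements under that unadjusted threshold is not given here, so no excess is read from these counts. Their median differences were 0.012, -0.015, 0.0074 and -0.067, against medians of 0.017, -0.00010, 0.0028 and -0.0023 over all elements. Over the 4 other strains, 11 of 83 (13.3%) passed the F test, beside 7.60% of all elements.

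The genes called were spread over the lists. Among monomer-binding proteins and their kin, Tmsb4x (thymosin beta 4, which holds monomers in reserve) averaged -0.35 ± 0.10 in C57BL/6J and 0.24 ± 0.13 in FVB/NJ, a difference of -0.58 (adjusted p = 0.0143), and Capg, which caps filament ends, averaged -0.23 ± 0.10 in C57BL/6J and 0.22 ± 0.085 in FVB/NJ, a difference of -0.44 (adjusted p = 0.0424). Capzb, a subunit of capping protein, was 0.85 higher in C57BL/6J than in FVB/NJ (adjusted p = 0.00127), and a different Capzb element gave 0.45 (adjusted p = 0.21). Spire1, a filament nucleator, was 0.57 higher in C57BL/6J than in DBA/2 (adjusted p = 0.00991; other element 0.15, adjusted p = 0.644). Acta1, the actin of skeletal muscle, was lower in C57BL/6J than in DBA/2 by a difference of -0.80 (adjusted p = 0.00406), with -0.58 (adjusted p = 0.0269) and -0.28 (adjusted p = 0.204) on its other elements. The LIM protein Fhl2 was 0.53 higher in C57BL/6J than in BALB/c (adjusted p = 0.0322; other element 0.39, adjusted p = 0.202). Pfn2, the paralog of Pfn1, and Actb, the cytoplasmic beta actin, were singled out after their values were seen and were not past the test in any of these comparisons, with differences of -0.27 to -0.074 for Pfn2 and -0.13 to 0.26 for Actb on the elements chosen by the rule. Their other elements reached 0.083 for Pfn2 against FVB/NJ and 0.63 for Actb against 129X1/SvJ, so the direction depended on the element.

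**Figure D4:**
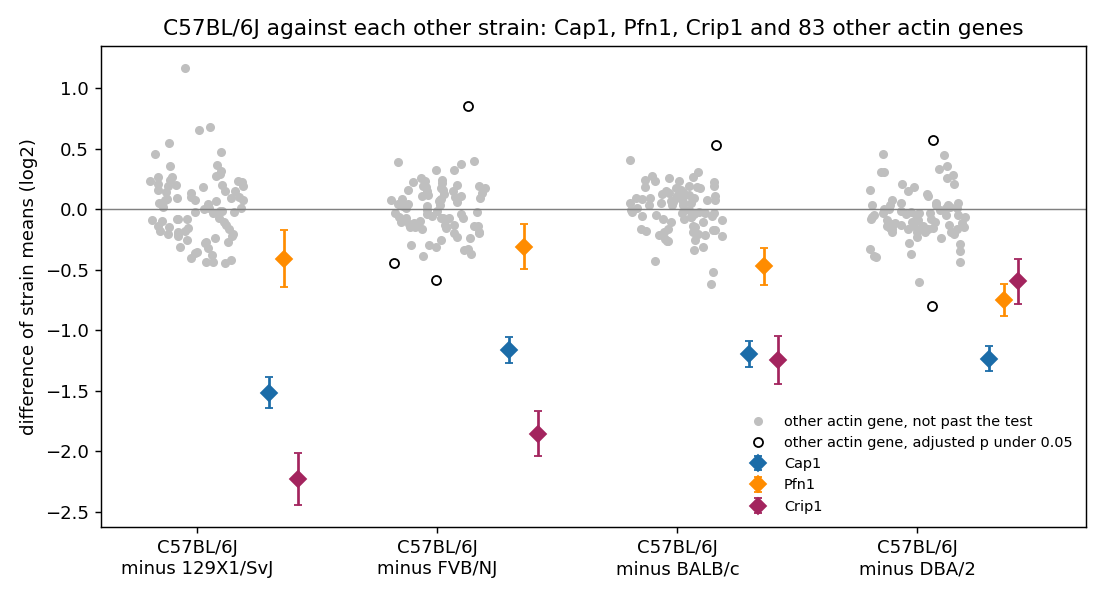
Difference of strain means on the log2 scale, C57BL/6J minus each other strain, for Cap1, Pfn1 and Crip1 (diamonds, with standard errors) and for the 83 other actin genes (circles, open where the adjusted p was under 0.05). Cap1, Pfn1 and Crip1 were chosen on this contrast and are drawn for scale; of the listed genes, 0, 3, 1 and 2 are open circles from left to right.

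Markers of the cell types in the tissue were set beside these differences, against the mean of the 4 other strains. Luminal epithelium had 2 of 7 measured markers higher in C57BL/6J: Sbp, a secreted prostate protein, by 1.28 (adjusted p = 5.54e-05) and Tmprss2, a membrane protease, by 0.40 (adjusted p = 0.0406), though only by 0.24 (adjusted p = 0.493) on its other element; 3.22% of all elements were called in this comparison. Of the other 5, Spink1 differed by 0.66 and Pbsn by -0.37, neither past the test, and the median of the 7 was 0.083. The mean of the 7 luminal markers per array was 0.092 to 0.29 in C57BL/6J, and -0.35 to 0.18 in 129X1/SvJ, -0.33 to 0.028 in FVB/NJ, -0.37 to 0.012 in BALB/c, with DBA/2 at -0.29 to 0.082. Sbp is part of this mean. The paper found Sbp to differ in the same direction in microdissected secretory epithelium, where only a pair of the strains was compared. Its area measurements of stroma and epithelium showed no significant differences between strains. Neither Sbp nor this mean is therefore read here as a count of luminal cells. Adipose tissue had 1 of 3 lower, Fabp4, a fatty acid carrier, by -0.63 (adjusted p = 0.00893), and its per-array mean was -0.59 to -0.013 in C57BL/6J, and -0.049 to 0.44 in 129X1/SvJ, -0.21 to -0.079 in FVB/NJ, 0.099 to 0.26 in BALB/c, with DBA/2 at -0.026 to 0.14. None of 5 leukocyte, 10 fibroblast, 6 smooth muscle, 7 skeletal muscle, 5 endothelial, 1 basal and 6 seminal vesicle markers was called by limma against that mean. At an unadjusted p under 0.05 there were 2 among the seminal vesicle markers, 0 for the basal marker and 1 in each other of these lists. Nothing is read from these unadjusted counts, since the share of all elements under that threshold is not given here. Against single strains, C57BL/6J had lower Lyz2 (-0.81, adjusted p = 0.00468), Kdr (-0.89, adjusted p = 0.0301), Fabp4 (-0.75, adjusted p = 0.0238), Svs2 (-6.61, adjusted p = 0.00302), Svs5 (-5.27, adjusted p = 0.00451) and Pate4 (-4.04, adjusted p = 1.15e-04) and higher Mgp (0.98, adjusted p = 0.00352) than BALB/c. It had lower Cd52 (-0.70, adjusted p = 0.0309) and Kdr (-0.78, adjusted p = 0.00603) than DBA/2, besides Acta1, also a skeletal muscle marker. On its other element the Kdr difference from BALB/c was -0.75 (adjusted p = 0.128). The other measured endothelial markers, Cdh5, Eng, Flt1 and Tie1, differed from BALB/c by 0.17, 0.067, 0.034 and -0.22. From DBA/2 they differed by 0.0051, 0.064, -0.17 and -0.27, and none was past the test in either comparison. The median of the endothelial list was 0.034 against BALB/c and -0.17 against DBA/2. Sbp was higher in C57BL/6J than in each of the 4 strains, by 0.93 to 1.71, and Tmprss2 than in FVB/NJ and DBA/2, by 0.65 and 0.44. The other Tmprss2 element gave 0.39 against FVB/NJ (limma adjusted p = 0.223) and 0.43 against DBA/2 (limma adjusted p = 0.174). Leukocyte markers, of interest because blood cells are rich in actin regulators, averaged -0.25 to -0.0061 per array in C57BL/6J, and -0.20 to 0.16 in 129X1/SvJ, -0.20 to 0.14 in FVB/NJ, -0.062 to 0.20 in BALB/c, with DBA/2 at -0.15 to 0.17. Seminal vesicle markers averaged -3.33 to -0.042 per array in C57BL/6J, and -3.26 to -0.063 in 129X1/SvJ, -3.56 to -0.43 in FVB/NJ, 0.57 to 1.42 in BALB/c, with DBA/2 at -3.07 to -2.40. Among these markers is Svs2. The paper used that gene to check strain differences in prostate expression by qRT-PCR on the same RNA. Whether these transcripts came from the prostate itself or from neighbouring tissue was not tested. The part of any of these cell types in the Cap1, Pfn1 and Crip1 values was not tested.

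Genes were ranked by how alike their pattern over the 20 pools was to that of Cap1, Pfn1 or Crip1. None of the closest was on the actin lists. Only 83 of the 5817 genes compared were on these lists, so nothing is read from this. Likeness was Pearson's r of log2 ratios over 20 pools among 5817 genes, given as a description; the pools share strain, dye and the common reference. Closest to Cap1 were Cilp2, a cartilage matrix protein (0.894), Oip5os1, a long non-coding RNA (0.890), Irx2, a homeobox factor (0.875), and Rex1bd (0.854), all low in C57BL/6J, with means of -0.91, -0.93, -0.34 and -0.47. The most opposed were Asah2, a ceramidase (-0.931), and Pttg1, securin of the mitotic spindle checkpoint (-0.929), which averaged 0.73 and 1.16 in C57BL/6J and were below 0 in the 4 other strains. Since Cap1 was low in C57BL/6J alone, ranking by r over 20 pools favours genes that set this strain apart. Within the 16 pools of the other strains the r of these 4 alike genes to Cap1 was 0.385 to 0.618.

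For Crip1 the closest were Supt16, a histone chaperone subunit (0.848), Psmb4, a proteasome subunit (0.847), Uqcr11, of respiratory complex III (0.835), and Nudt14, a nucleotide-sugar hydrolase (0.827). Nudt14 lies on chromosome 12 as Crip1 does, 8 protein-coding genes away, while the other measured genes between them had r of -0.0790 to 0.141. The most opposed were 9530053A07Rik (-0.931) and Rab6a, a Golgi GTPase (-0.879); 9530053A07Rik mirrored the staircase, with 0.87 in C57BL/6J, -1.72 in 129X1/SvJ, -0.91 in FVB/NJ, -0.34 in BALB/c and 0.64 in DBA/2. For Pfn1 the closest were Cops7b, of the COP9 signalosome (0.860), Ppox, an enzyme of haem synthesis (0.840), Snx27, an endosomal sorting nexin (0.821), and Ifitm2, an interferon-induced membrane protein (0.820). The most opposed were Wdr63, an axonemal protein (-0.921), and Mphosph8, a chromatin silencing factor (-0.756). In deviations from the strain means, r was 0.764 to 0.864 for the alike genes of Pfn1 and 0.0679 to 0.653 for those of Cap1. Pfn1 and its 4 alike genes all spread most in 129X1/SvJ. The SDs there were 0.46 for Pfn1 and 0.29 to 0.60 for the alike genes. Pool 4 of that strain was an outlier for Pfn1, and r without this pool was not computed. In such deviations the r to Crip1 was -0.154 for Supt16, 0.598 for Psmb4, 0.481 for Uqcr11 and 0.434 for Nudt14. It was 0.104 for 9530053A07Rik and -0.167 for Rab6a, so their opposition to Crip1 lay between strains.

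**Figure D5:**
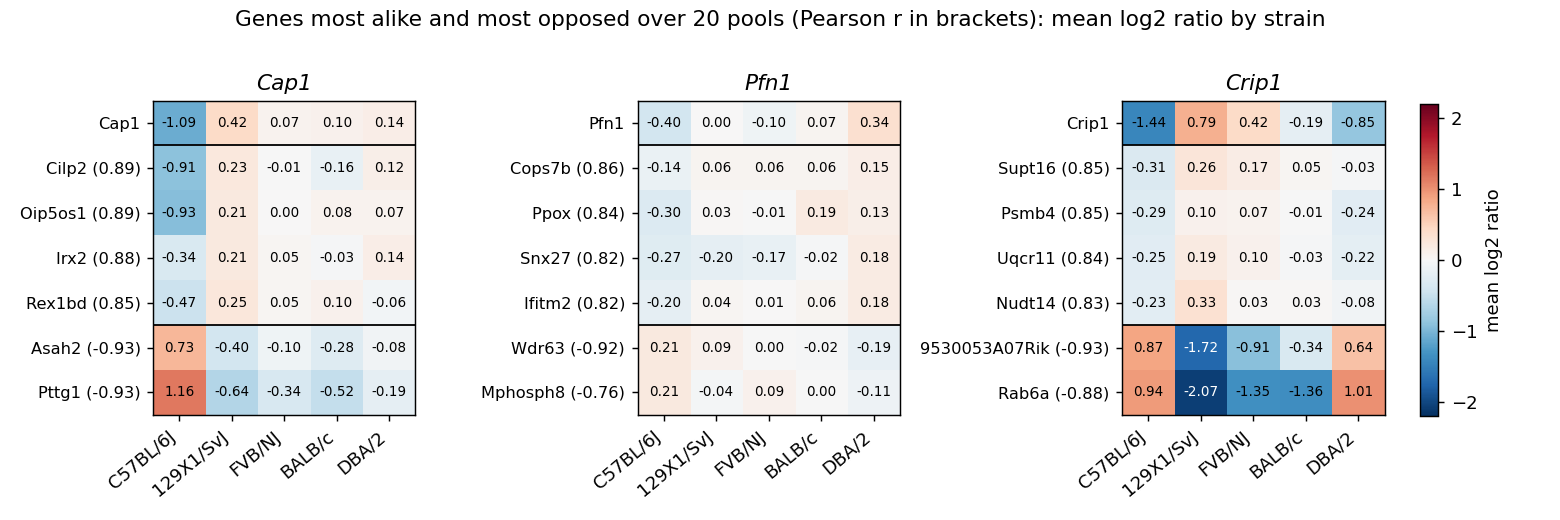
Mean log2 ratio by strain, in colour and digits, of Cap1, Pfn1 and Crip1 (top row of each panel), their 4 most alike genes and their 2 most opposed genes, with Pearson's r over 20 pools in brackets. The alike genes of Cap1 share a low C57BL/6J mean, which ranking by r to a gene low in that strain alone favours. 9530053A07Rik runs opposite to Crip1 at each step from 129X1/SvJ to DBA/2, while Rab6a is level between FVB/NJ and BALB/c.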

How the data were processed

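The authors corrected spot signals for local background, normalised within arrays by print-tip loess and deposited log2 ratios of sample over reference, 1 column per array; signal intensities were not used here, so the signal over background of the 3 elements is unknown, and so are clone sequences. Of 11552 elements, 11159 were tested, those lacking no more than 3 values and holding 2 or more in each strain; 2.89% of values were missing, none for the 3 genes. Arrays held 10998 to 11251 values with medians of -0.01 to 0.02; precision is limited by how many arrays there were. Groups, pool numbers and dyes came from the sample labels; pools are separate mice. limma 3.58.1 in R 4.3.3 was fitted without covariates, with Benjamini-Hochberg adjustment over all elements tested: pairs of strains on their 8 arrays, C57BL/6J against the mean of the others on 20, the F test on 16, and dye beside strain on 20. Intervals are 95% intervals of the moderated fit. Correlations used 100000 permutations, two-sided (Python 3.11.15, SciPy 1.17.1). A listed gene was represented by its element with the fewest missing values, then the lowest number. Named were the 4 most alike and 2 most opposed genes, up to 4 listed genes per list called against any strain, and called markers. The 3 genes and all lists were chosen with earlier results of these data known. Promoters are RefSeq's for GRCm38.p6, and all 3 genes matched. Alternatives were element filters, scaling, quantile normalisation, array weights, a pool-number block, dye as a covariate, all arrays in 1 fit, and leaving out each pool. One list of genes that act on actin is not reported here.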

Additional observations from a re-analysis of the deposited data

Results flagged for a closer look

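Pfn1 in 129X1/SvJ pool 4 had a log2 ratio of -0.67, against 0.16 to 0.32 in the other 3 pools of that strain, a sample far from the others of its group. It was the only one of 15 combinations of gene and strain examined to pass Dixon's criterion, and chance alone marks about 1 in 20 such groups. The same array had the widest spread over all elements, with a median absolute deviation of 0.44. Without this pool the Pfn1 difference of C57BL/6J from 129X1/SvJ was -0.63, where all pools gave -0.41, and the F test over the 4 other strains had an adjusted p of 0.234 for Pfn1. The cause was not tested.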

How the results depend on the processing

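The C57BL/6J differences of Cap1, Crip1 and Pfn1 kept their sign under every alternative run, 156 of 156 that left out a pool and 162 of 162 others, and moved by more than the pooled SD of the strains compared only for Cap1 under quantile normalisation (-1.40 against FVB/NJ, -1.43 against BALB/c, -1.49 against DBA/2 and -1.49 against the mean). For Cap1 the F test over the 4 other strains had an adjusted p of 0.43 with arrays scaled to 1 spread, 0.398 under quantile normalisation and 0.0452 to 0.119 without single pools. The Crip1 dye difference was -0.10 under quantile normalisation (adjusted p = 0.604). Counts of called elements moved most against 129X1/SvJ: C57BL/6J against 129X1/SvJ gave 608 called elements with all arrays in 1 fit and 69 to 228 without single pools, and C57BL/6J against the mean gave 556 with array weights and 225 to 512 without single pools. Without single pools the counts were 220 to 266 against FVB/NJ, 196 to 287 against BALB/c and 217 to 283 against DBA/2. With all arrays in 1 fit, Cap1 was called between 129X1/SvJ and FVB/NJ (0.35, adjusted p = 0.0313), and the Crip1 calls between FVB/NJ and BALB/c (0.61, 0.0843) and between BALB/c and DBA/2 (0.65, 0.0573) were lost. Leaving out single pools gave 0.90 to 1.08 for Crip1 in 129X1/SvJ minus BALB/c, 0.55 to 0.71 in FVB/NJ minus BALB/c and 0.55 to 0.72 in BALB/c minus DBA/2, and for Pfn1 -0.17 to 0.16 in 129X1/SvJ minus BALB/c (0.083 with array weights), -0.029 to 0.33 in 129X1/SvJ minus FVB/NJ and -0.59 to -0.31 in FVB/NJ minus DBA/2. Within strains, r was -0.17 for Cap1 and Pfn1 with dye means removed and -0.086 without the 2 farthest pools, 0.084 and 0.24 for Pfn1 and Crip1, and 0.43 for Cap1 and Crip1 without 2 pools. The causes were not tested.

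Same-numbered pools of different strains are separate mice, but they share the label dye in all strains except 129X1/SvJ, whose dyes are reversed. Correlations of 40 such pairs ran from -0.339 to 0.435, and 22 pairs were over 0.1. All 22 were pairs with the same dye, and no pair with 129X1/SvJ was over 0.1. The part of the dye in these correlations was not tested. With the pool number as a replicate block, 53 elements were called in C57BL/6J against 129X1/SvJ, Crip1 in 129X1/SvJ minus BALB/c was 0.98 with an adjusted p of 0.205, and the Pfn1 dye difference was -0.34 with an adjusted p of 0.0368. In the fit with this block, the dye difference rests on 129X1/SvJ set against the other strains, since only its dyes are reversed within a pool number. The Pfn1 outlier, 129X1/SvJ pool 4, is part of that, so dye and strain cannot be told apart there. The precision rests on 4 pools a strain; each gene has 1 element, whose clone sequence was not analysed here, so a difference in sequence between strains under it was not tested.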

Other observations

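A further element of the array, number 2646, is annotated to both Ppt1 and Cap1, neighbouring genes on chromosome 4, and was left out of the values above because it names no single gene. It behaved unlike the Cap1 element: its mean log2 ratio was -0.90 ± 0.26 in C57BL/6J, -2.04 ± 0.29 in 129X1/SvJ, -1.58 ± 0.56 in FVB/NJ, 1.12 ± 0.38 in BALB/c and 0.70 ± 0.27 in DBA/2 (SD, n = 4 each). Over the 20 pools its r to the Cap1 element was 0.00107, and to 3 elements of Ppt1 it was 0.0155 to 0.178. Its r to 6 elements of 9530002B09Rik, the measured gene on the far side of Ppt1, was 0.549 to 0.801, and these elements were low in 129X1/SvJ and FVB/NJ too, but averaged 0.18 to 0.49 in C57BL/6J, where element 2646 was low. The F test over the 4 other strains gave element 2646 an adjusted p of 4.43e-07. Its identity was not tested.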
